A study of Mus musculus with 383 samples.

Results

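The 7 genes described here encode NMDA receptor subunits (Grin1, Grin2a, Grin2b, Grin2c, Grin2d and Grin3a) and a delta-type glutamate receptor subunit (Grid1). They were taken by name, 7 of the 29779 genes of a read count table, and described over the 316 of 383 nuclei in which at least 1000 genes had a read. The tissue was the vagal dorsal motor nucleus (DMV), the brainstem group of preganglionic motor neurons whose axons run in the vagus nerve. Male Chat-IRES-Cre mice on a C57BL/6 background, in which the choline acetyltransferase locus drives Cre, were injected in the DMV at 10 weeks of age with 100 nL of AAV9-DIO-H2b-mCherry, a Cre-dependent virus that labels nuclei. Tissue was taken 16 days later and pooled, and the design text gives an age of 12 weeks. All nuclei share this genotype, virus and pooling, and no untreated or wild-type group was analysed here. Nuclei positive for mCherry were sorted 1 per well and sequenced with Smart-seq2, which copies transcripts along their length without molecular identifiers. The labels name no animal, so all nuclei together are 1 sample, nuclei are not replicates, and no p-value was computed.

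NMDA receptors are glutamate-gated cation channels of 4 subunits that pass calcium and need glutamate, a co-agonist (glycine or D-serine) and depolarisation to open. Grin1 encodes the obligatory GluN1 subunit, the Grin2 genes encode the glutamate-binding GluN2 subunits that set gating and kinetics, and Grin3a encodes a glycine-binding subunit that lowers calcium permeability and magnesium block. Delta receptors resemble them in sequence but act mainly as synaptic adhesion proteins, bridged to presynaptic neurexins by cerebellins. Motor neurons of the DMV receive glutamatergic input from the nucleus of the solitary tract, and part of it is carried by NMDA receptors.

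Grin1 and Grid1 stand for the NMDA and the delta branch of the family, so the coding bases around the conserved end of the third membrane segment are shown for this pair to let their relation be read directly. Each stretch is 87 bases of the coding sequence, 5′ to 3′ on the gene's strand, from GENCODE M21 transcripts on GRCm38. Capitals mark the 27 bases of the conserved core.
Grin1: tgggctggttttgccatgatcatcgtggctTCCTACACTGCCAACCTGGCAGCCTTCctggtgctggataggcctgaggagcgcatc
Grid1: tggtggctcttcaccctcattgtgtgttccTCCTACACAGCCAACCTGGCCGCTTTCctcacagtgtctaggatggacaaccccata
Within the core, 24 of 27 bases of Grid1 were equal to Grin1. The core was located in each gene by a short shared amino-acid motif, so part of this likeness is by construction. On GRCm38 the stretches are chr2:25297169-25297255 on the minus strand for Grin1 and chr14:35452311-35452397 on the plus strand for Grid1, and each lies in 1 exon. Over whole transcripts of the 7 genes the likeness is short: of the 21 pairs of transcripts, 4 shared any run of 25 bases, and no pair shared more than 10 such runs. Grin1 and Grid1 shared 0.

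The retained nuclei held a median of 1440075 reads and 11234.5 genes with a read, and the deepest held 4699420 reads. Of them, 96.2% had a read of Chat. Clusters were named from markers: 294 nuclei were visceral motor-like and 22 somatic motor-like. For comparison each nucleus was reduced at random to 500000 reads, which kept 22 somatic and 273 visceral motor-like nuclei. The classes were named by the marker lists, so their separation by these markers is partly by construction. The 5 visceral markers averaged 8.18% of somatic and 57.6% of visceral motor-like nuclei, and the 6 somatic markers 43.9% and 6.90%. Of the visceral list, Tbx20 was read most, in 27.3% of the somatic and 92.7% of the visceral class. Calcb, the most read of the somatic list in its class, had 63.6% and 5.13%. Lhx3, also a somatic marker, did not separate the classes, at 4.55% and 3.66%, and Phox2a was read in 21.2% of the visceral class. Markers of other cell types were also read: the astrocyte list averaged 20.0% of somatic and 21.1% of visceral motor-like nuclei, and the microglia list averaged 11.8% of somatic and 12.2% of visceral ones. Higher averages were those of the oligodendrocyte list, 25.5% of somatic and 31.9% of visceral ones, and the vascular list, 24.5% and 25.1%. Mbp, of the oligodendrocyte list, was read in 59.1% of somatic and 75.1% of visceral motor-like nuclei. Intervals below are 95% intervals, exact Clopper-Pearson for shares and exact Poisson for summed levels, given as reads-per-million (RPM), the reads of a gene scaled to all reads of the same nuclei. No more than counting error of reads or of nuclei is covered by them, and none covers differences between animals. PCR copies of a molecule could not be removed, so intervals on reads are narrower than intervals on molecules would be. Intervals on reads also do not cover the spread between nuclei. From a sum over a class alone, nuclei of a kind being fewer and a gene being lower in each cannot be told apart. Values of single nuclei are therefore also given for many comparisons.

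Some libraries were much more alike than the rest. Over all genes, the Pearson correlation of ln(RPM + 1) was above 0.85 for 17 of the 49770 pairs of retained nuclei, with a median of 0.685 over all pairs and 0.842 as the highest value below that limit. The 9 most alike pairs had correlations from 0.9903 to 0.9945, and each joined nuclei with consecutive numbers between 193 and 288 that fell in the same cluster. A chi-square per gene of their counts was 1.31 to 3.49, against a median of 70.7 and a lowest value of 1.80 in 1000 other pairs drawn at random. The 17 pairs formed 12 sets with 26 nuclei, all visceral motor-like, and the labels describe each as a separate nucleus. The labels do not say whether any set holds 1 nucleus more than once, and the values below count every nucleus. The limit of 0.85 was chosen after seeing the data. With the deepest nucleus of each set alone, 261 visceral motor-like nuclei were left at equal depth. In them Grin1 was read in 97.7%, Grin2a in 98.9%, Grin2b in 99.6%, Grin2c in 17.2%, Grin2d in 87.0%, Grin3a in 95.4% and Grid1 in 100%, and the counts of genes past a limit given below were the same, 1 between the classes and 5 among clusters.

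The visceral motor-like nuclei carried reads of all 7 genes, with 6 of them in at least 87.5% of nuclei. Grid1 had a read in 273 of 273 nuclei (100%, 98.7% to 100%) and Grin2b in 272 (99.6%, 98.0% to 100%). Grin2a was read in 98.9% (96.8% to 99.8%), Grin1 in 97.8% (95.3% to 99.2%), Grin3a in 95.6% (92.4% to 97.7%) and Grin2d in 87.5% (83.0% to 91.2%). Grin2c, which in the mouse is best known from cerebellar granule cells, was read in 17.9% (13.6% to 23.0%). That share is below the average of the astrocyte markers in the same nuclei, so it is not read as expression across the class. With at least 5 reads required, Grin2d stood at 67.8% and Grin2c at 12.8%, while Grin2b stayed at 99.6%. 

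Grin1 (chr2:25291181-25319187, minus strand) had 0, 58 and 270 RPM at the lowest, median and highest visceral motor-like nucleus. Summed over the class it stood at 66.2 RPM (64.8 to 67.6). An antisense gene, Grin1os, overlaps its exons, and reads of the pair cannot be told apart unless strand was used, which is not given in the sources used here. Grin1os had 222 reads over all nuclei.

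Grin2a (chr16:9567898-9995560) and Grin2b (chr6:135713233-136173511), the GluN2 genes best known from the adult brain, differed in how evenly they were distributed. Grin2a ran from 0 RPM in the lowest visceral motor-like nucleus through a median of 448 to 3572 RPM in the highest, with a coefficient of variation of 1.00 over nuclei. Grin2b ran from 0 through 418 to 1100 RPM, with a coefficient of variation of 0.469. The median coefficient over 4348 genes with a summed level of at least 50 RPM and a read in at least 50% of these nuclei was 0.78. Of those genes, 87.0% varied less than Grin2a and 4.51% varied less than Grin2b. Grin2b was thus among the evenly read genes and Grin2a among the uneven ones, in the same 273 nuclei. Grin2b also stood apart in the 67 nuclei with under 1000 genes: it had 360 RPM in them, close to the 427 RPM of the retained nuclei, while Grin2a had 67.8 RPM in them and 767 RPM in the retained ones. The part of this in the level of Grin2b in retained nuclei was not tested. The 360 RPM rested on 138 reads over the 67 nuclei, with a median of 1 read per nucleus. Retained nuclei had a median of 546.5 reads of Grin2b at full depth.

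Grin2d (chr7:45831883-45878378), a subunit gene with known expression in brainstem and diencephalon, had a median of 18 RPM and a highest value of 162 RPM in visceral motor-like nuclei. The antisense genes Gm26653 and Gm45441 share exon bases with Grin2b and Grin2d, with 451 and 73 reads over all nuclei. The protein-coding gene Kdelr1 overlaps Grin2d on the opposite strand without overlap of exons. Grin2c (chr11:115249169-115267243) was at 0 RPM in the median nucleus and at 202 RPM in the highest. Its summed 6.59 RPM (6.17 to 7.04) came from 49 nuclei.

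Grin3a (chr4:49661611-49845744) had 0, 250 and 1480 RPM at the lowest, median and highest visceral motor-like nucleus. The gene Ppp3r2 lies inside 1 of its introns on the same strand and had reads in 49 nuclei of the series. Grid1 (chr14:34820108-35583379) had 26, 784 and 2950 RPM, and was the only one of the 7 with no visceral motor-like nucleus at 0.

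Ordered by level per kilobase of exon, Grid1 came first in visceral motor-like nuclei at 143 RPM per kilobase. Grin2a followed at 42.3, Grin3a at 24.4, Grin2b at 17.0, Grin1 at 6.82, Grin2d at 4.41 and Grin2c at 1.31 RPM per exon kilobase. Counting intervals of neighbours in this order did not overlap, while their values over single nuclei did, and the order depends on the length used. Per kilobase of the whole gene body Grin1 came first at 2.36 RPM, ahead of Grin2a at 1.77, Grin3a at 1.63, Grid1 at 1.12, Grin2b at 0.916, Grin2d at 0.631 and Grin2c at 0.365. Grin2a came ahead of Grin3a, and Grin3a ahead of Grin2b, Grin2d and Grin2c, on either scale. Nuclear RNA holds introns, and whether reads in introns were counted is not given in the sources used here, so the rank of Grin1 and Grid1 is not settled by these values.

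**Figure D1:**
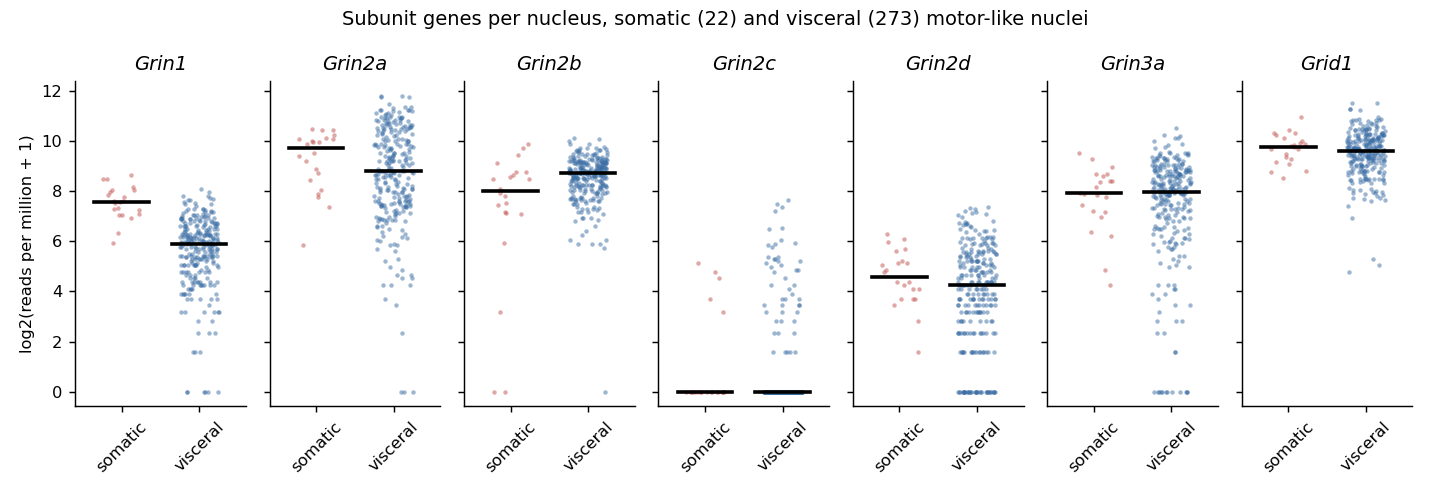
Log2(RPM + 1) of each subunit gene in each nucleus reduced to 500000 reads, with 22 somatic motor-like nuclei on the left and 273 visceral motor-like nuclei on the right of each panel. Points are nuclei and black bars are medians. Grin1 medians stand at 191 RPM in somatic and 58 RPM in visceral motor-like nuclei, and the clouds of the other genes overlap widely.

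Between the classes, Grin1 was the 1 gene of the 7 that was at least 2-fold apart in summed level. The 22 somatic motor-like nuclei had 60 RPM of Grin1 in the lowest, 191 in the median and 404 in the highest nucleus, against 0, 58 and 270 RPM in visceral motor-like nuclei. All 22 somatic motor-like nuclei lay above the visceral median, and 8 of 273 visceral motor-like nuclei lay above the somatic median. The ranges overlapped, with 50.9% of visceral motor-like nuclei below the lowest somatic one. Summed levels were 205 RPM (196 to 213) in somatic and 66.2 RPM (64.8 to 67.6) in visceral motor-like nuclei, a ratio of 3.09. The ratio was 3.12, 3.17, 3.89 and 2.46 in the 4 blocks of 96 consecutive nucleus numbers, used in place of plates, with 6, 7, 3 and 6 somatic motor-like nuclei. Of 17526 genes tested, 2.89% had a larger ratio.

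Members were counted as past a limit where summed levels were at least 2-fold apart, or where shares of nuclei with a read were at least 20 percentage points apart with intervals that did not overlap. By level, 1 of the 7 (Grin1) was higher in somatic motor-like nuclei, where 7.4% of all tested genes were, and 0 were lower, where 22.7% of all genes were. By share, 0 of 7 were higher, against 2.12% of all genes, and 0 were lower, against 3.23%. The clusters that define the classes were built on all genes, so this comparison is a description. A clustering without the 7 genes gave the same 22 somatic motor-like nuclei. With at least 2000 genes required and classes made again, 313 nuclei were kept and the somatic class grew to 37, these 22 among them. The visceral class went from 294 to 276, so the somatic class grew by nuclei that had been classed as visceral motor-like before. Its size thus depended on how the clusters were made and named again, and the ratio of Grin1 was then 2.14. Median genes with a read were 9902 in somatic and 10273 in visceral motor-like nuclei at equal depth.

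The other 6 genes had summed levels within the 2-fold limit. Grin2a had 56, 848 and 1418 RPM at the lowest, median and highest somatic motor-like nucleus, against 0, 448 and 3572 RPM in visceral ones, and a ratio of summed levels of 1.01. Grin2b had 0, 256 and 930 RPM in somatic motor-like nuclei, against 0, 418 and 1100 RPM in visceral ones, and 6 of 22 somatic motor-like nuclei exceeded the visceral median. Its ratio was 0.75, and 2 of 22 somatic motor-like nuclei had no read of it. Summed ratios were 0.99 for Grin2d, 0.92 for Grin3a and 1.06 for Grid1. Grin2c had a ratio of 0.70 on 51 somatic reads in 5 nuclei, and in 2 of the 4 blocks no somatic motor-like nucleus had a read of it.

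Among the 6 Grin genes described here, Grin1 also took a larger share of reads in somatic motor-like nuclei. Its rank by reads among them, after Grin2a, Grin2b and Grin3a, was the same in both classes. NMDA receptor subunit genes outside these 6 are not part of the shares, so they are not shares of all subunit reads. Of all reads of the 6 Grin genes, Grin1 took 12.8% (12.3% to 13.3%) in somatic and 4.19% (4.10% to 4.27%) in visceral motor-like nuclei. In somatic motor-like nuclei Grin2a took 48.0%, Grin2b 19.8% and Grin3a 17.3% of the same reads, and in visceral ones Grin2a took 47.9%, Grin2b 26.7% and Grin3a 19.0%. Per exon kilobase the 4 Grin2 genes together stood at 288% of Grin1 in somatic and 952% of Grin1 in visceral motor-like nuclei.

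The balance of Grin2a and Grin2b is followed in many neurons because the first gives faster receptors and the second slower ones. Of their joint reads Grin2a held 70.8% (69.9% to 71.6%) in somatic and 64.3% (64.0% to 64.5%) in visceral motor-like nuclei. That difference was lost when at least 2000 genes were required and classes were made again, at 64.6% in somatic and 64.7% in visceral motor-like nuclei. Within single nuclei its share had a median of 78.4% in somatic and 54.3% in visceral motor-like nuclei. Grin2a exceeded Grin2b in 86.4% (65.1% to 97.1%) of the somatic class, 19 of 22, and in 56.0% (49.9% to 62.0%) of the visceral class, 153 of 273. Visceral motor-like nuclei were spread over the whole scale, with 32 under 20% and 50 over 80%. Per exon kilobase the joint share of Grin2a was 77.0% in somatic and 71.4% in visceral motor-like nuclei.

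**Figure D2:**
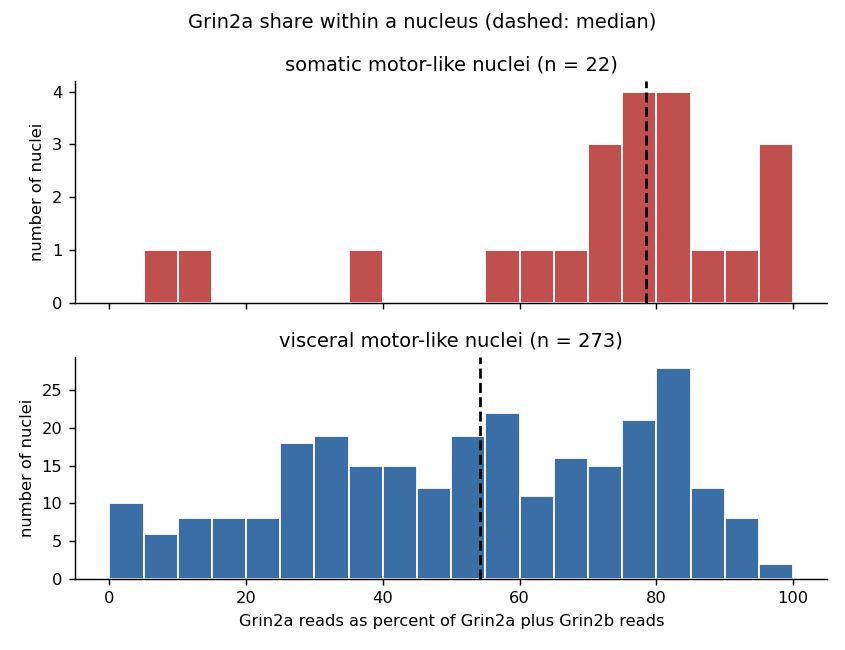
Number of nuclei (vertical axis) by the share of Grin2a in the reads of Grin2a plus Grin2b within a nucleus (horizontal axis, percent), for 22 somatic motor-like nuclei above and 273 visceral motor-like nuclei below, with dashed lines at the medians. Medians are 78.4% in somatic and 54.3% in visceral motor-like nuclei, and the visceral nuclei spread across the whole axis.

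Most nuclei carried several subunit genes together. Exactly Grin1, Grin2a, Grin2b, Grin2d and Grin3a, without Grin2c, were read in 68.2% (45.1% to 86.1%) of the somatic class, 15 nuclei, and in 64.5% (58.5% to 70.1%) of the visceral class, 176 nuclei. All 6 of the Grin genes described here were read in 5 somatic (22.7%) and 45 visceral motor-like nuclei (16.5%). Grin1 with Grin2a, Grin2b and Grin3a, with or without others, was read in 90.9% (70.8% to 98.9%) of somatic and 92.3% (88.5% to 95.2%) of visceral motor-like nuclei. At a minimum of 5 reads for each gene these shares were 86.4% in the somatic and 85.3% in the visceral class. Nuclei without a read of Grin1 numbered 0 of 22 in the somatic class (0% to 15.4%) and 6 of 273 visceral motor-like nuclei (2.20%, 0.811% to 4.72%). Reads of several subunit genes in a nucleus do not show which subunits assemble.

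**Figure D3:**
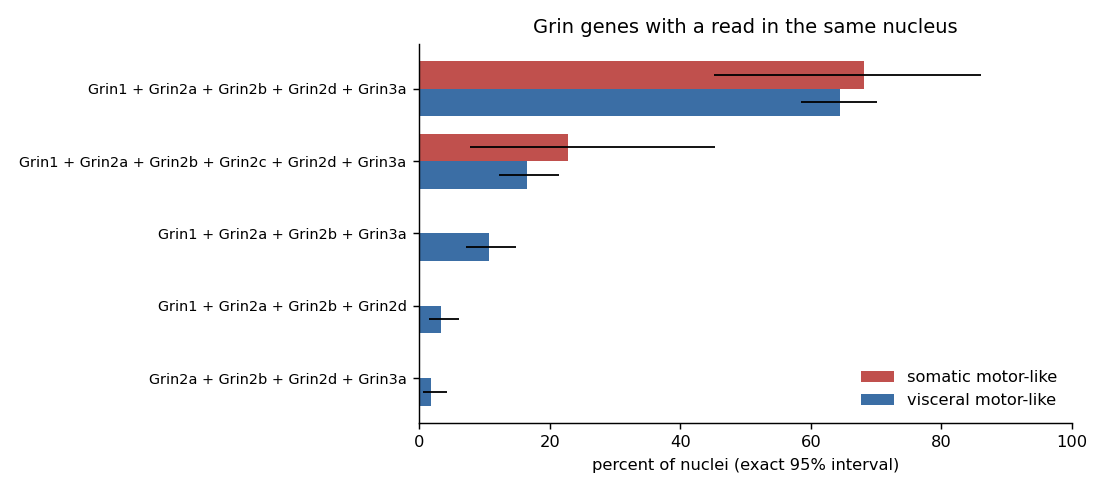
Percent of nuclei (horizontal axis, exact 95% intervals as lines) with a read of exactly the named set of Grin genes, for the 5 sets most frequent in visceral motor-like nuclei. Somatic motor-like nuclei are the upper bar of each pair and visceral motor-like nuclei the lower; the set of 5 genes without Grin2c leads in both classes, at 68.2% in somatic and 64.5% in visceral motor-like nuclei, and 3 of the 5 sets have no somatic nucleus.

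Among clusters of visceral motor-like nuclei, Grin2a differed more than the other 5 subunit genes with a read in most nuclei. A second clustering of these nuclei, built without the 7 genes and without other receptor, channel, peptide and early-response genes, gave 12 clusters, of which 11 held at least 8 nuclei at equal depth. Grin2a was highest in cluster 7, at 680, 1654 and 3572 RPM in the lowest, median and highest of 27 nuclei. Nuclei of cluster 7 read Pdyn, the prodynorphin gene, in 85.2% and Cckar, the receptor for cholecystokinin, in 92.6%. In cluster 6, Grin2a had 18, 1598 and 3512 RPM over 29 nuclei, and in cluster 2, where 52.9% of nuclei read the peptide gene Grp, it had 396, 1272 and 2348 RPM over 34 nuclei. Clusters 7, 6 and 2 thus had the highest medians, although single nuclei of cluster 6 lay near 0. High nuclei were not confined to them: cluster 1 had 82, 424 and 2438 RPM over 40 nuclei. Its highest nuclei, at 2436 and 2438 RPM, lay above all of cluster 2 and formed a pair among the most alike.

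At the low end, Grin2a had 10, 156 and 562 RPM over 28 nuclei of cluster 4, and 0, 182 and 912 RPM over 34 nuclei of cluster 3. In cluster 8, where 70.0% of nuclei read Cck, 100% read Cckar and 0 of 20 read Npy2r, it had 0, 215 and 584 RPM. No nucleus of cluster 4 or cluster 8 reached the lowest nucleus of cluster 7. The summed level was 1819 RPM (1796 to 1842) in cluster 7 and 178 RPM (171 to 185) in cluster 4, a ratio of highest to lowest of 10.2, larger than for 95.0% of 4348 genes, whose median was 2.43. Over the 4 number blocks Grin2a stood between 1323 and 2132 RPM in cluster 7 and between 122 and 216 RPM in cluster 4.

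Grin3a had another order of clusters. It had 204, 487 and 1218 RPM in the lowest, median and highest nucleus of cluster 8 and 88, 478 and 1480 RPM in cluster 3. In cluster 1, marked by Bmpr1b and Tbx2, it had 0, 76 and 452 RPM over 40 nuclei. Of the reads of the 6 Grin genes, Grin3a held 43.2% in cluster 8, 39.6% in cluster 4 and 38.5% in cluster 3, against 8.8% in cluster 1, 10.6% in cluster 2 and 10.8% in cluster 7. In its own summed level Grin3a stood at 276 RPM in cluster 7 and 330 RPM in cluster 6, both high in Grin2a, a ratio of 0.91 and 1.11 to the other nuclei. Its Spearman correlation with Grin2a over the 273 nuclei was -0.10. The reads of the 6 Grin genes include those of Grin2a, so low Grin2a by itself raises the share of Grin3a. The summed level of Grin3a was 518 RPM in cluster 3, 390 RPM in cluster 4 and 560 RPM in cluster 8. Ratios to the other nuclei were 1.93, 1.35 and 2.01, and only that of cluster 8 was past the 2-fold limit upwards. Cluster 9 also had 390 RPM, at a share of 24.6%. Clusters 3, 4 and 8 thus combined low Grin2a with a high share of Grin3a, while clusters 5 and 10 were low in the level of both.

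**Figure D4:**
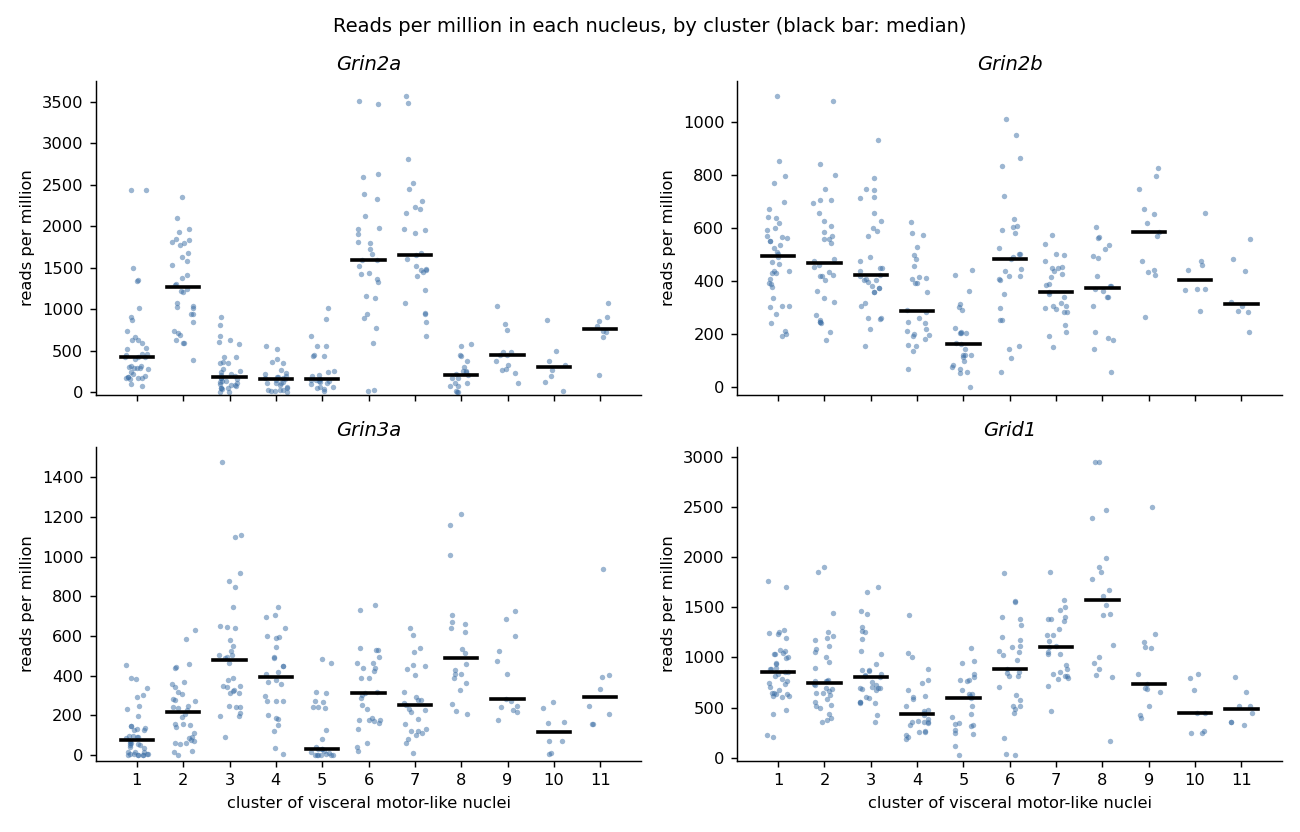
Values of Grin2a, Grin2b, Grin3a and Grid1 in RPM (vertical axes) in each visceral motor-like nucleus of the 11 clusters compared (horizontal axis). Points are nuclei and black bars medians; Grin2a medians reach 1654 RPM in cluster 7 and 156 RPM in cluster 4, while those of Grin2b stay between 162 and 584 RPM.

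The share of Grin2a in the reads of Grin2a and Grin2b, which contains Grin2a itself, had a median within a nucleus of 83.1% in cluster 7, 79.5% in cluster 6 and 73.3% in cluster 2, against 31.2% in cluster 4, 31.7% in cluster 3 and 39.7% in cluster 8. Cluster 5, low in both genes, had a median of 56.3%, above the 47.1% of cluster 1. All 27 nuclei of cluster 7 had a share over 50%, against 6 of the 34 in cluster 3.

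Grid1 was highest in cluster 8, at 168, 1567 and 2950 RPM, and its summed level ran to 1585 RPM there against 493 RPM in cluster 10. Grin2b ran from 577 RPM in cluster 9 to 182 RPM in cluster 5, and Grin1 from 115 RPM in cluster 9 to 48.3 RPM in cluster 5. Grin1 and Grid1 were not past the 2-fold limit in any cluster against the other visceral motor-like nuclei, although Grid1 in cluster 8 had a ratio of 1.99 and passed the limit under several other settings. By level, 5 of 7 genes (Grin2a, Grin2b, Grin2c, Grin2d and Grin3a) were past it in at least 1 cluster, where 72.1% of all tested genes were. By share, Grin2c, Grin2d and Grin3a were past the limit, 3 of 7, against 33.4% of all genes. These counts are near those of all genes. For Grin2c they rest on few nuclei: it had no read in clusters 7 and 11, and in cluster 9 it was read in 53.8% of 13 nuclei, against 16.2% of the others. In cluster 12, too small to be compared, 6 of 7 nuclei read it (85.7%) at a summed 45.7 RPM.

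The calls of Grin2b and Grin2d came from cluster 5 alone, and without it 3 of 7 genes were past a limit, Grin2a, Grin2c and Grin3a. In cluster 5, 60.0% of 25 nuclei read Grin2d, against 90.3% of the other visceral motor-like nuclei, and 76.0% read Grin3a, against 97.6%. Nuclei of cluster 5 also read Atf3, an injury-induced transcription factor gene, in 88.0%, and Chat in 76.0%. They read the 41 markers of other cell types in 35.2% of nuclei on average, with 0 of the 41 at 0, the highest of the 12 clusters and followed by 33.5% in cluster 10. The summed level of the 41 markers was 114, 668 and 1740 RPM in the lowest, median and highest nucleus of cluster 5, against medians of 195 to 722 RPM in the other clusters compared. The 41 include the catecholaminergic genes Th and Ddc, and Ddc was read in 93.8% of visceral motor-like nuclei. The sum is thus not one of other cell types alone. In cluster 5 the astrocyte, microglia and vascular lists averaged 48.0%, 28.8% and 46.4% of nuclei. Each was the highest of the 12 clusters, followed by 30.0%, 20.0% and 40.0% in cluster 10. The part of these markers in the low subunit values of cluster 5 was not tested.

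Grin2a also differed with single genes that mark kinds of visceral motor neurons. In the 159 nuclei with a read of Npy2r, the receptor for peptide YY and neuropeptide Y, Grin2a had a median of 862 RPM (quartiles 303 and 1624), against 233 RPM (100 and 489) in the 114 nuclei without. The ratio of summed levels was 2.81, and it was between 2.41 and 3.24 in the 4 blocks. Grin2a was the 1 gene of the 7 past the 2-fold limit upwards, as were 2.68% of all tested genes. Not every cluster rich in Npy2r was high in Grin2a. Npy2r was read in 100% of cluster 2 and 86.2% of cluster 6, both high in Grin2a. It was also read in 95.0% of cluster 1 and 100% of cluster 10. There Grin2a summed to 581 and 334 RPM, against 788 and 771 RPM in the other visceral motor-like nuclei. Cluster 11, with Npy2r in 87.5%, had 749 RPM, against 758 RPM in the others. Grin3a had a median of 196 RPM (76 and 339) in Npy2r-positive and 347 RPM (201 and 571.5) in Npy2r-negative nuclei, with a ratio of 0.58, which is within the limit.

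**Figure D5:**
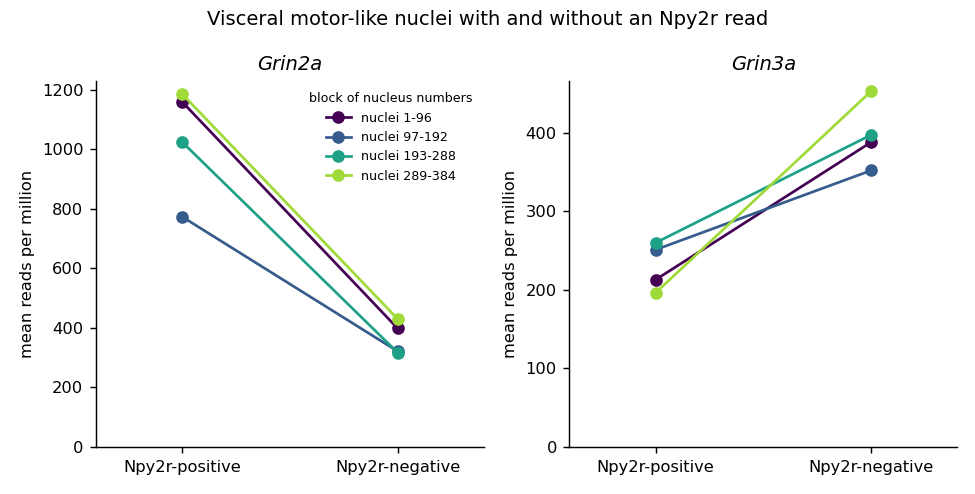
Mean RPM (vertical axis) of Grin2a and Grin3a in visceral motor-like nuclei with a read of Npy2r (left of each panel) and without (right), 1 line for each of the 4 blocks of 96 nucleus numbers. In all 4 blocks Grin2a is higher and Grin3a lower in the Npy2r-positive nuclei.

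In the 40 nuclei with a read of Pdyn, Grin2a had a median of 1507 RPM, against 398 RPM in the 233 without. The ratio of summed levels was 2.28, where 4.54% of all genes were past the limit upwards, and Grin2a was the 1 of the 7. The ratio fell under the limit, to 1.82, without the nuclei numbered 289 to 384. In the 119 nuclei with a read of Th, the gene of tyrosine hydroxylase, the median was 942 RPM, against 314 RPM in the 154 without, and the ratio of 2.02 lay at the limit, which 5.18% of all genes passed upwards. It was 1.87 at full depth, 1.97 in a second random draw and 1.75 without the nuclei numbered 289 to 384.

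The 19 nuclei with a read of Cck, the cholecystokinin gene, had a median of 150 RPM of Grin2a, against 493 RPM in the 254 without. The ratio of 0.35 was past the limit downwards, as it was for 17.9% of all genes and for 1 of the 7. It was 0.57 at full depth, and 0.19 without the nuclei numbered 1 to 96. Grid1 had a median of 1426 RPM in Cck-positive and 768 RPM in Cck-negative nuclei, with a ratio of 1.61. Ratios of Grin2a were 1.51 for Cckar, 1.80 for Grp, 0.71 for Atf3 and 1.78 for Hoxb5, each positive over negative nuclei. Grin2c, with 900 reads over all visceral motor-like nuclei, had ratios between 0.019 (Pdyn) and 2.24 (Cck) over the same markers. The value of 0.019 is set by the floor of 3 reads, since Grin2c had 0.05 RPM in Pdyn-positive nuclei, against 7.72 RPM in the others.

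Over the 273 visceral motor-like nuclei the subunit genes followed one another only weakly, with Spearman correlations of log2(RPM + 1) between -0.24 (Grin2a and Grin2c) and 0.30 (Grin2a and Grid1). Among 9674 other genes with a read in at least 50% of these nuclei, the pattern most like Grin2a was that of Zfp536 at 0.67, followed by Sorcs3 at 0.61 and Trpc7 at 0.60. For Grin3a they were Vsnl1 at 0.57, Adcy2 at 0.55 and Grm7 at 0.54, and for Grid1 Shisa9 at 0.51, Fam155a at 0.50 and Ntm at 0.49. The nearest gene to Grin2b reached 0.40 (Lingo2), to Grin1 0.34 (Apc2), to Grin2d 0.31 (Lingo1) and to Grin2c 0.29 (Nyap2). These nuclei share a library preparation and the correlations are descriptions.

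Genes that work with these receptors were also listed, in 5 roles: scaffolds, kinases and signalling, supply and uptake of co-agonist, trafficking, and partners of delta receptors. Of the 42 genes 41 were analysed, and Dlg2 was not analysed here. By level, 4 of 38 tested genes were at least 2-fold higher in the somatic class, against 7.4% of all genes, and 7 at least 2-fold lower, against 22.7%. The median ratio was 0.88 over the list and 0.85 over all tested genes. Shank1, a postsynaptic scaffold gene, had 117 RPM in somatic and 44.8 RPM in visceral motor-like nuclei, Camk2g, a calcium/calmodulin-dependent kinase gene, 339 RPM in somatic and 141 RPM in visceral ones, and Lin7b, a trafficking adaptor gene, 57.0 RPM in somatic and 23.7 RPM in visceral ones. Dao, which encodes the oxidase that degrades D-serine, had 5.18 RPM in the somatic and 2.42 RPM in the visceral class. It rested on few nuclei, with a read in 22.7% (7.82% to 45.4%) of somatic and 11.4% of visceral ones.

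Dlg1, the scaffold SAP97, had 89.0 RPM in somatic and 317 RPM in visceral motor-like nuclei, and Rasgrf2, an exchange factor activated by calcium, 188 RPM in somatic and 746 RPM in visceral ones. Camk2a, the kinase best known from plasticity at NMDA receptor synapses, was read in 45.5% (24.4% to 67.8%) of somatic and 87.9% (83.4% to 91.5%) of visceral motor-like nuclei. Cbln2, a cerebellin that binds delta receptors, was read in 18.2% (5.19% to 40.3%) of somatic and 63.4% (57.4% to 69.1%) of visceral motor-like nuclei. Ptk2b, a calcium-activated tyrosine kinase gene, had 1.27 RPM in the somatic and 18.5 RPM in the visceral class. Its reads were in 18.2% (5.19% to 40.3%) of somatic and 43.6% (37.6% to 49.7%) of visceral motor-like nuclei. Slc7a10, a transporter of D-serine, had 0.91 RPM in the somatic and 2.11 RPM in the visceral class. It was read in 18.2% (5.19% to 40.3%) of somatic and 13.6% of visceral motor-like nuclei, so its ratio rests on few nuclei. Slc6a9, the glycine transporter GlyT1, had 3.64 RPM in the somatic and 7.33 RPM in the visceral class. No partner was past the limit of share upwards.

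Within visceral motor-like nuclei the partner genes ranged widely. Scaffolds Dlg1 and Dlgap1 were read in 100% and Dlg3 in 50.9%, and among kinases Camk2d in 99.6% and Ptk2b in 43.6%. Of the co-agonist genes Slc1a4, a transporter of neutral amino acids, was read in 93.0% and Phgdh, which starts the synthesis of serine, in 9.52%. Apba1, Snx27 and Akap9 were read in 99.6% and Actn2 in 48.7%. Among partners of delta receptors the neurexin gene Nrxn3 was read in 100% and Cbln3 in 3.66%.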

How the data were processed

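Each library was 1 nucleus. The authors deposited 1 table of whole-number read counts per gene for 383 nuclei and 29779 genes, not normalized. Per the submitters' processing notes, the build was GRCm38 and the software included STAR, bcl2fastq, Seurat (3), Picard and edgeR, without their roles; the annotation, counting mode and strand are not given in the sources used here. One protocol passage names sections around another brain nucleus, while the tissue is labelled as the DMV; this was not resolved.

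Nuclei with at least 1000 genes with a read were clustered with scanpy 1.11.5 and leidenalg 0.10.2 (counts scaled to 10000, 2000 variable genes, 15 components, 10 neighbours, resolution 1) and classed by marker lists. Doublets were not called, since 1 nucleus was sorted per well. Visceral motor-like nuclei were clustered again without 512 held-out genes, 12 mitochondrial and 99 ribosomal protein genes. Each nucleus was thinned to 500000 reads, which left out 21 visceral motor-like nuclei. Comparisons used genes with a read in at least 10% of the nuclei compared, with sums under 3 reads set to 3. The 7 genes, gene lists and rules were chosen with earlier results of these data known. All 7 genes are named; partners are named where past a limit or at the highest or lowest share of a role, and up to 3 genes by Spearman correlation. Genes were matched by symbol to GENCODE for lengths and coordinates. Some sequences and 1 partner gene are not reported here. The comparison code was tested on simulated data. Alternatives are given under the processing heading of the closing section.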

Additional observations from a re-analysis of the deposited data

Results flagged for a closer look

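The nuclei with under 1000 genes with a read were not used in the comparisons, and 4 of the 7 genes were read in more of these 67 nuclei than the 3 nuclei (4.48%) taken as a floor. Grin2b was read in 43 of them (64.2%, exact 95% interval 51.5% to 75.5%), with 0, 1 and 14 reads in the lowest, median and highest nucleus. Grin2a was read in 7 (10.4%, 4.30% to 20.3%), Grid1 in 6 (8.96%, 3.36% to 18.5%) and Grin3a in 4 (5.97%, 1.65% to 14.6%). Grin2d was read in 1, and Grin1 and Grin2c in 0 (0% to 5.36%). These nuclei held a median of 2328 reads and 344 genes with a read. Over the 3803 genes read in at least 90% of retained nuclei, the median share in these nuclei was 2.99%, and 26 genes of the whole table were read in more of them than Grin2b.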

How the results depend on the processing

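The series is 1 sample without replicate animals, depth is limited to 500000 reads per nucleus, and 22 nuclei stand for the somatic class. No paired analysis was possible because there is 1 group without replicate numbers. Leaving out nuclei over 10% mitochondrial reads changed nothing, as there were 0. Grin1 was past the limit between classes under all 17 alternatives run on that count; without nuclei 97 to 192 Grin2c joined it, so that the count ran from 1 to 2 over the blocks left out. With at least 2000 genes required, 313 nuclei were kept and 37 were somatic motor-like, the 22 among them. The ratio of Grin1 was then 2.14. Among clusters the count was 4 to 7 under the other alternatives, and 3 without cluster 5 and without clusters 5 and 10, both chosen after seeing the data; Grid1 joined without thinning, in a second draw, with at least 2000 genes, at resolution 0.5 and without nuclei 97 to 192, and Grin1 without nuclei 193 to 288. With each set of alike nuclei counted once, also chosen after seeing the data, 1 gene was past the limit between classes and 5 among clusters, or 4, without Grin2b, when clusters were made again.

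The Grin2a share of the reads of Grin2a and Grin2b in somatic motor-like nuclei was 69.3% at 200000 reads, 69.7% in a second draw, 64.6% with at least 2000 genes, 77.0% per exon kilobase, 72.2% per gene body kilobase and 78.4% as a median over nuclei, and 68.6% to 73.1% over the blocks left out. In visceral motor-like nuclei it was 63.7% without thinning, 64.7% with at least 2000 genes, 71.4% per exon kilobase, 65.9% per gene body kilobase, 54.3% as a median over nuclei and 64.8% without clusters 5 and 10, and 63.2% to 65.5% over the blocks left out. With at least 2000 genes the difference between the classes was thus lost. The share of visceral motor-like nuclei with Grin1, Grin2a, Grin2b and Grin3a was 87.5% at 200000 reads and 85.3% with at least 5 reads. The cause of these shifts was not tested. Over the alternatives the ratio of the highest to the lowest cluster ran from 7.31 to 12.0 for Grin2a and from 4.73 to 5.81 for Grin3a. The ratio of Grin2a in Npy2r-positive to Npy2r-negative nuclei ran from 2.72 to 2.90. Summed visceral levels ran from 61.1 to 72.0 RPM for Grin1, 725 to 822 RPM for Grin2a, 396 to 447 RPM for Grin2b, 293 to 324 RPM for Grin3a and 798 to 904 RPM for Grid1.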
